A study of Mus musculus with 6 samples.

Results

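The 10 genes described here belong to fibroblast growth factor (FGF), hedgehog and bone morphogenetic protein (BMP) signalling and were measured in the prostates of 4-week-old mice. They were the ligands Fgf7, Fgf10, Shh, Bmp4 and Bmp7, the receptors Fgfr1, Fgfr2 and Ptch1, the transcription factor Gli1 and the BMP inhibitor Nog. Each was chosen by name and was read from the single array probe set that carried its symbol alone, so 10 of the 19938 genes measured are described. The study set 3 mice carrying an AR3 transgene against 3 wild-type littermates, with 1 Affymetrix array of whole dissected prostate per mouse. AR3 is a splice variant of the human androgen receptor that lacks the ligand-binding domain. The sources used here do not name the promoter that drives the transgene, the strain or the prostate lobes taken, and the transgene's own expression was not checked. The series asked which genes differ between the genotypes at that age.

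Prostate buds grow out of the urogenital sinus epithelium under signals exchanged with the mesenchyme around them. Fgf7 and Fgf10 are made by mesenchymal cells and act on an epithelial splice form of Fgfr2, which drives bud outgrowth. Shh is secreted by the epithelium, binds Ptch1 on mesenchymal cells and so releases Smo, after which Gli factors switch on targets that include Ptch1 and Gli1 themselves. Bmp4 and Bmp7 restrain outgrowth and branching, and Nog binds and blocks BMP ligands. The arrays read whole genes, so splice forms of the receptors were not told apart.

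No difference between AR3 transgenic and wild-type prostates was detected for any of the 10 genes. Fgf10, Shh and Nog had slightly lower means in the transgenic mice and the other 7 slightly higher means, of which Gli1, Bmp4 and Bmp7 turned negative with quantile normalization or median centring. The transgenic and wild-type values overlapped for every one of the 10 genes. By limma, with p-values adjusted over every tested probe set by the Benjamini-Hochberg method, 0 of 10 passed an adjusted p of 0.05 or of 0.1 and 0 of 10 had an unadjusted p under 0.05. Over all genes 1.64% passed the adjusted threshold of 0.05 (1.18% higher and 0.456% lower in transgenic prostates, and 1.47% of all probe sets), 2.45% passed 0.1, 12.2% had an unadjusted p under 0.05, and 19.1% had genotypes that did not overlap. Among 161 other genes of these pathways and of bud growth, 3 passed the adjusted threshold of 0.05, or 1.86%, near the 1.64% of all genes. Of these, the Shh release factor gene Scube2 and the endocytic receptor gene Lrp2 rose most in transgenic prostates, by 0.95 and 1.07 on the log2 scale. The size for Lrp2 depends on the constant added before taking logs, with 1.28 for a constant of 1 and 0.71 for 64.

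The sequences upstream of 2 of the mesenchymal ligands and of the 2 pathway genes that rose most are given for comparison, as the 250 bases before the start site in the RefSeq promoter table of assembly GRCm38.p6. That table matched 5 of the 10 genes: Fgf7, Fgf10, Fgfr2, Ptch1 and Bmp4. Capitals mark GGCGCC, a GC-rich element that BMP-activated Smads can bind. The Fgf7 window is chr2:126034408-126034657 on the plus strand, that of Fgf10 is chr13:118714449-118714698 on the plus strand, that of Scube2 is chr7:109865680-109865929 on the minus strand, and that of Lrp2 is chr2:69586030-69586279 on the minus strand.
Fgf7: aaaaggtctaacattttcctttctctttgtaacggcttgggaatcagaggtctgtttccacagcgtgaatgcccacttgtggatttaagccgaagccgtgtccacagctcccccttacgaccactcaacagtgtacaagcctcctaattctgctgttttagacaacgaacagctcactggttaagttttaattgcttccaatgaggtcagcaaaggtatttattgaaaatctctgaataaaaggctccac
Fgf10: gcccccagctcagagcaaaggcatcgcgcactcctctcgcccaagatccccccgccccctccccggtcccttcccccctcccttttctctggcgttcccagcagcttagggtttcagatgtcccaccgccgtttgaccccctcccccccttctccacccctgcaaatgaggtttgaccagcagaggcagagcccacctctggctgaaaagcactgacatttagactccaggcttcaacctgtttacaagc
Scube2: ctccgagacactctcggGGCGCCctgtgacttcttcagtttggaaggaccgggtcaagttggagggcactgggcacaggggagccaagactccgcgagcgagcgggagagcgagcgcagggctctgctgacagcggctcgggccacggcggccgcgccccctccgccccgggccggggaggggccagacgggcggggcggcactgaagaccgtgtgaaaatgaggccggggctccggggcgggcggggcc
Lrp2: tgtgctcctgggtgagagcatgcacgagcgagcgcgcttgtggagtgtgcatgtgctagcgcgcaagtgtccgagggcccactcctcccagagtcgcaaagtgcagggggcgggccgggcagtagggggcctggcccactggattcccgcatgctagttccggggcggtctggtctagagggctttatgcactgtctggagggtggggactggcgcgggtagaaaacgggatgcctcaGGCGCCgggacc
Bases G and C made up 43.6% of the Fgf7 window, 61.2% of that of Fgf10, 44.0% of Fgfr2, 78.4% of Ptch1 and 63.2% of Bmp4. The shares were 73.6% for Scube2 and 66.4% for Lrp2, and the median over all 32851 windows was 52.4%. GGCGCC, which reads the same on both strands, was found in 1 of the 5 windows of the followed genes, that of Ptch1. It was also found in those of Scube2 and Lrp2, against 9.59% of all windows, a share not matched for G and C content. The androgen receptor half-site AGAACA, searched on both strands, was found in 0 of the 5 windows and in 16.1% of all windows. The Gli-binding letters GACCACCCA were found in 0 of the 5 on either strand, against 0.225% of all windows. Neither AGAACA nor GACCACCCA was found in the window of Scube2 or in that of Lrp2. A match or its absence describes these letters in this window only.

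The prostate secretory genes fixed as a check of the tissue were bright on all 6 arrays. Their summed intensity over 9 measured genes was 58763 to 64257 in wild-type mice and lower, 46494 to 50754, in transgenic mice. Median intensity over the tested probe sets lay between 94.5 and 110.8 per array. Because detection calls were not used, 1035 olfactory receptor probe sets served as a scale of background, and their 95th percentile lay between 66.9 and 91.9. All 10 genes lay above that percentile on each of the 6 arrays. Fgf7, Gli1 and Nog were nearest to it, at 1.11 to 1.53, 1.14 to 1.40 and 1.27 to 1.50 times the percentile of their own array. Fold changes are understated most in genes near the background. The precision of every value is limited by 3 arrays per genotype.

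**Figure D1:**
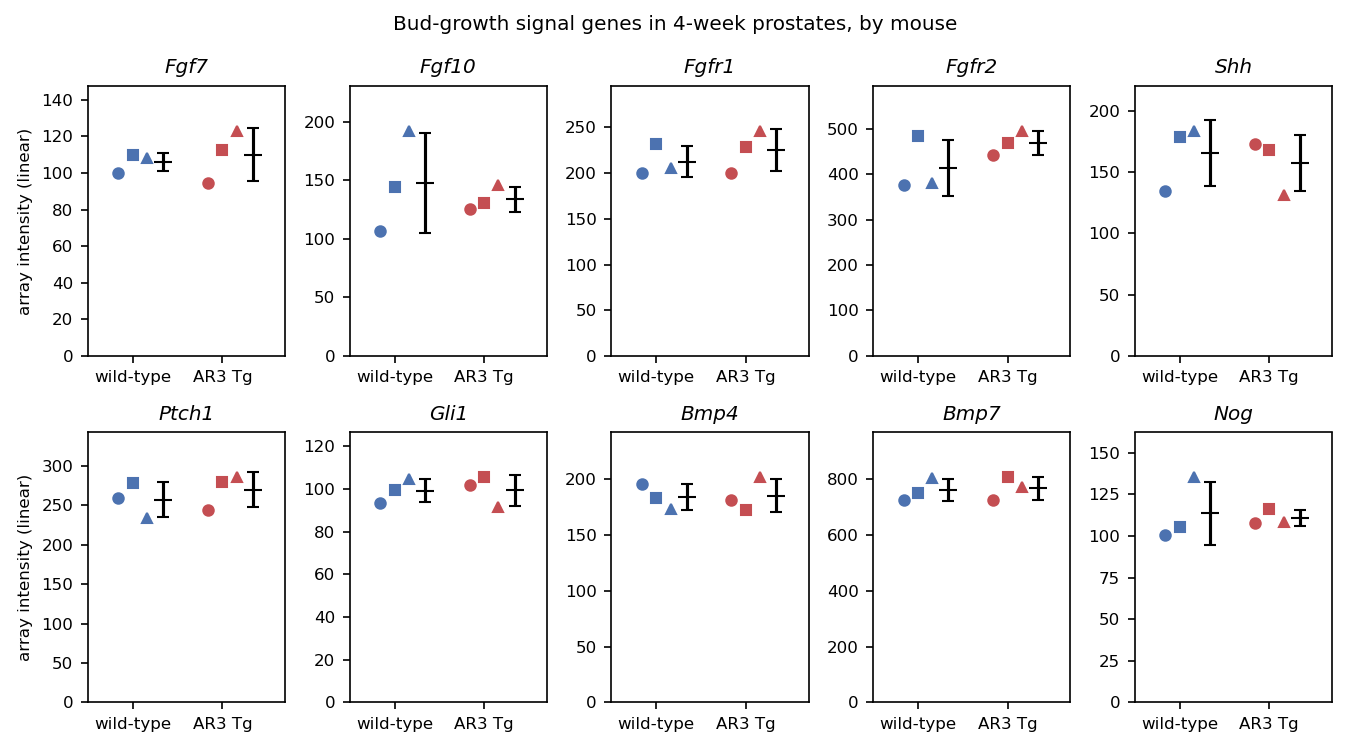
Array intensity on a linear axis from 0 for each of the 10 genes, with wild-type mice in blue and AR3 transgenic mice (AR3 Tg) in red. Circles, squares and triangles are mice 1, 2 and 3 of each genotype, and the main fit did not pair mice of the same number. The bar beside each group is its mean ± SD (n = 3). The groups overlap in all 10 panels, and the widest spread as a ratio is that of Fgf10, whose wild-type mice read from 107 to 192.

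Fgf7, also called keratinocyte growth factor, read 100.1, 109.8 and 107.9 in wild-type mice 1, 2 and 3, and 94.3, 112.4 and 122.9 in transgenic mice 1, 2 and 3. The transgenic mice held both the lowest and the highest value. The means were 106 ± 5.14 (SD, n = 3) and 109.9 ± 14.5 (SD, n = 3), a log2 change of 0.04 ± 0.10 (SE) with a 95% interval of -0.20 to 0.27 and an adjusted p of 0.919 (limma). Here and below a log2 change is transgenic minus wild-type on the scale of log2(intensity + 16).

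Fgf10, the mesenchymal ligand that prostate bud formation requires, read 106.7, 144.6 and 192.3 in wild-type mice and 125.5, 130.3 and 145.8 in transgenic mice. All 3 transgenic values lay inside the wild-type range, whose ends were 1.80-fold apart, the widest spread of the 10 genes as a ratio. The means were 148 ± 42.9 (SD, n = 3) and 134 ± 10.6 (SD, n = 3), a log2 change of -0.10 ± 0.18 with an interval of -0.51 to 0.32 and an adjusted p of 0.876 (limma). The wild-type mice set its sign: the change was -0.29 without wild-type mouse 1, the lowest, and 0.09 without wild-type mouse 3, the highest, with adjusted p of 0.32 and 0.802. In both fits it was not called.

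Fgfr1, a receptor found widely in stroma, read 200.02, 232.0 and 205.4 in wild-type mice and 200.11, 228.7 and 246.1 in transgenic mice. Transgenic mouse 3 was highest and the other transgenic values lay within the wild-type range. The log2 change was 0.07 ± 0.10 with an interval of -0.16 to 0.31 and an adjusted p of 0.819 (limma). Its size varied with single mice, from 0.01 without transgenic mouse 3 to 0.15 without transgenic mouse 1.

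Fgfr2, which encodes the epithelial receptor for Fgf7 and Fgf10, had the largest change of the 10 genes. It read 375.5, 483.9 and 380.3 in wild-type mice and 442.9, 467.8 and 495.2 in transgenic mice. All transgenic values were above wild-type mice 1 and 3, but wild-type mouse 2 lay above 2 of them, so the groups overlapped. The means were 413 ± 61.3 (SD, n = 3) and 469 ± 26.1 (SD, n = 3), a log2 change of 0.18 ± 0.11 with an interval of -0.08 to 0.44 and an adjusted p of 0.568 (limma). Without wild-type mouse 2 the change was 0.30 and the adjusted p 0.339, and with array weights, which count some arrays less, the change was 0.04. The absolute change of Fgfr2 lay at the 78.3rd percentile of all genes, the highest place among the 10.

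Shh, the epithelial hedgehog ligand, read 134.9, 178.2 and 183.5 in wild-type mice and 172.8, 167.8 and 131.1 in transgenic mice. One mouse of each genotype, wild-type 1 and transgenic 3, lay low, and the other 4 lay between 167.8 and 183.5. The means were 166 ± 26.6 (SD, n = 3) and 157 ± 22.7 (SD, n = 3), a log2 change of -0.07 ± 0.14 with an interval of -0.39 to 0.26 and an adjusted p of 0.901 (limma). The same 2 mice had the highest level of seminal vesicle markers, whose list of 8 genes had a mean log2 level of 8.24 and 8.89 in them and at most 7.79 in the other 4. Its summed intensity ranged from 714 to 4815 in wild-type and from 2517 to 9863 in transgenic mice, and no marker was at 0. Without both mice the Shh change was -0.08, with an adjusted p of 0.765, against -0.07 with all 6. Left out alone, they moved it in opposite directions, to -0.19 without wild-type mouse 1 (adjusted p 0.467) and to 0.05 without transgenic mouse 3 (adjusted p 0.96), and it was 0.0083 without wild-type mouse 3.

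Ptch1, the Shh receptor that is itself switched on by hedgehog signalling, read 259.5, 278.2 and 234.0 in wild-type mice and 244.5, 279.9 and 285.5 in transgenic mice. Transgenic mice 2 and 3 were the highest, above wild-type mouse 2 by less than the SD of 22.2 in either genotype. The log2 change was 0.07 ± 0.10 with an interval of -0.16 to 0.29 and an adjusted p of 0.842 (limma). The change was 0.0035 without wild-type mouse 3 and 0.13 without transgenic mouse 1.

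Gli1, a transcription factor whose own expression is a usual readout of hedgehog signalling, read 93.6, 99.6 and 104.7 in wild-type mice and 101.7, 105.4 and 91.4 in transgenic mice. The transgenic mice held both ends of the range. The means were 99.3 ± 5.58 (SD, n = 3) and 99.5 ± 7.26 (SD, n = 3), with a log2 change of 0.0022 ± 0.08, an interval of -0.19 to 0.19 and an adjusted p of 0.995 (limma). This was the smallest change of the 10 genes, in a gene close to the background scale.

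Bmp4, a mesenchymal BMP ligand, read 195.5, 182.6 and 173.1 in wild-type mice and 181.4, 172.3 and 201.1 in transgenic mice. The lowest and highest values were both transgenic. The log2 change was 0.0078 ± 0.09 with an interval of -0.19 to 0.21 and an adjusted p of 0.983 (limma).

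Bmp7, the other BMP ligand, stood furthest above the background scale, at 8.57 to 10.86 times the percentile of its own array. It read 725.8, 752.9 and 805.4 in wild-type mice and 725.8, 807.0 and 772.6 in transgenic mice, and the ranges nearly coincided. The highest value was 1.11 times the lowest, the narrowest spread of the 10 genes as a ratio. The log2 change was 0.01 ± 0.08 with an interval of -0.17 to 0.20 and an adjusted p of 0.968 (limma).

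Nog, which encodes the BMP-binding inhibitor noggin, read 100.6, 105.2 and 135.2 in wild-type mice and 107.9, 116.2 and 108.6 in transgenic mice. Wild-type mouse 3 stood above the other 5, and the transgenic values lay inside the wild-type range. The means were 114 ± 18.8 (SD, n = 3) and 111 ± 4.58 (SD, n = 3), a log2 change of -0.02 ± 0.11 with an interval of -0.28 to 0.23 and an adjusted p of 0.96 (limma). Wild-type mouse 3 was also the highest in Fgf10 and in Shh, and its olfactory background percentile of 91.9 was the highest of the 6 arrays, whose part in these values was not tested. With the olfactory median subtracted from each array the change of Fgf10 was -0.11, against -0.10 as deposited. Those medians ran only from 25.9 in wild-type mouse 1 to 30.9 in wild-type mouse 3, so the subtraction does not test the part of background.

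**Figure D2:**
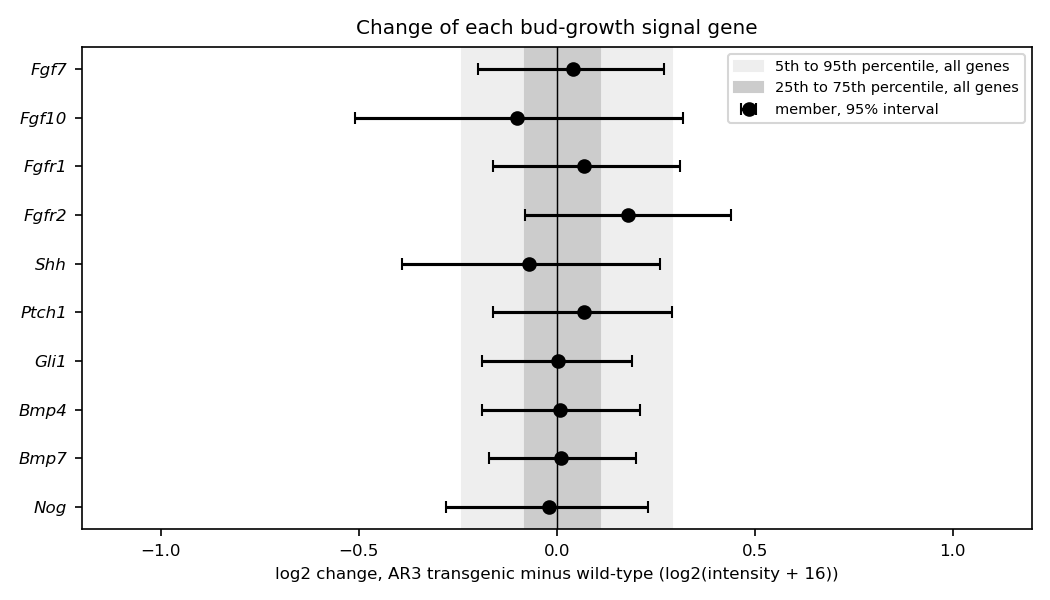
Log2 change of each of the 10 genes, AR3 transgenic minus wild-type on the scale of log2(intensity + 16), with the 95% interval from limma as a horizontal bar. The grey bands hold the middle part of all 19938 genes (25th to 75th percentile, -0.08 to 0.11) and its wider part (5th to 95th, -0.24 to 0.29), all intervals cross 0, and Fgfr2 at 0.18 is the only gene whose point lies outside the inner band on the high side.

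The median log2 change of the 10 genes was 0.01, the same as that of all genes, and the median absolute change was 0.05 against 0.09 over all genes. In all 10 the genotype means differed by less than the larger of the 2 SDs, and in 8 by less than the smaller. The standard errors ran from 0.08 to 0.18, around the median of 0.10 over all genes. Taken over all 10, the intervals reached from -0.51 for Fgf10 to 0.44 for Fgfr2, which are ratios of 0.70 and 1.36 on the same scale. The smallest absolute change called among all genes was 0.40 and the median called change was 0.86. Among the 10, only the intervals of Fgf10 and Fgfr2 reached a change of that smallest size.

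The mice did not differ by the same amount in every gene. Wild-type mouse 1 had the lowest value of 5 genes, Fgf10, Fgfr1, Fgfr2, Bmp7 and Nog, and transgenic mouse 3 had the highest value of 5, Fgf7, Fgfr1, Fgfr2, Ptch1 and Bmp4. Wild-type mouse 1 lay above the mean of the 6 arrays in 1 gene, Bmp4, and transgenic mouse 1 in 3, while the other 4 mice did so in 6 to 8. Wild-type mouse 1 also had the lowest array median, 94.5. Centring every array on its median left 0 of 10 genes called.

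Several of these genes are expressed mainly by stromal cells, so marker lists for stroma and epithelium are given beside them. In whole tissue, fewer cells of a type and less RNA per cell cannot be told apart. All 12 fibroblast markers had positive changes, none was called, and their median change was 0.46. Of the 12, 5 had an unadjusted p under 0.05 by limma, against 12.2% of all genes. The mean log2 level of the list was 8.44, 7.86 and 7.75 in wild-type mice 1, 2 and 3 and 8.28, 8.33 and 8.78 in transgenic mice, with summed intensities of 4752 to 6865 and 6359 to 8992 and no marker at 0. Wild-type mouse 3, with the lowest fibroblast level, had the highest Fgf10, and transgenic mouse 3, with the highest, had the highest Bmp4 and Fgf7. With the fibroblast level as a covariate Shh had a log2 change of 0.22, Fgf10 of 0.12 and Bmp4 of -0.11, with adjusted p of 0.353, 0.844 and 0.662, and 0 of 10 genes were called. The 10 smooth muscle markers had 0 calls and a median change of 0.04, and the 12 luminal epithelial markers 0 calls and a median change of 0.12. Of these, 0 smooth muscle and 2 luminal markers had an unadjusted p under 0.05 by limma. With the smooth muscle level as a covariate 0 of the 10 genes were called. Of the prostate secretory list 4 of 9 genes were lower and none higher, with a median change of -0.52 and 7 at an unadjusted p under 0.05. Of the seminal vesicle list 1 of 8 was higher and 1 lower, with 3 at an unadjusted p under 0.05. All 9 myeloid markers had positive changes, with a median of 0.34, 1 called higher and 4 at an unadjusted p under 0.05. Of 8 endothelial markers 7 had positive changes, with a median of 0.11, 1 called higher and 2 at an unadjusted p under 0.05. The basal, urothelial, skeletal muscle, nerve and adipocyte lists held 0 called genes by limma, with 1, 1, 3, 0 and 0 at an unadjusted p under 0.05. The part of those cell types in the values of the 10 genes was not tested.

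**Figure D3:**
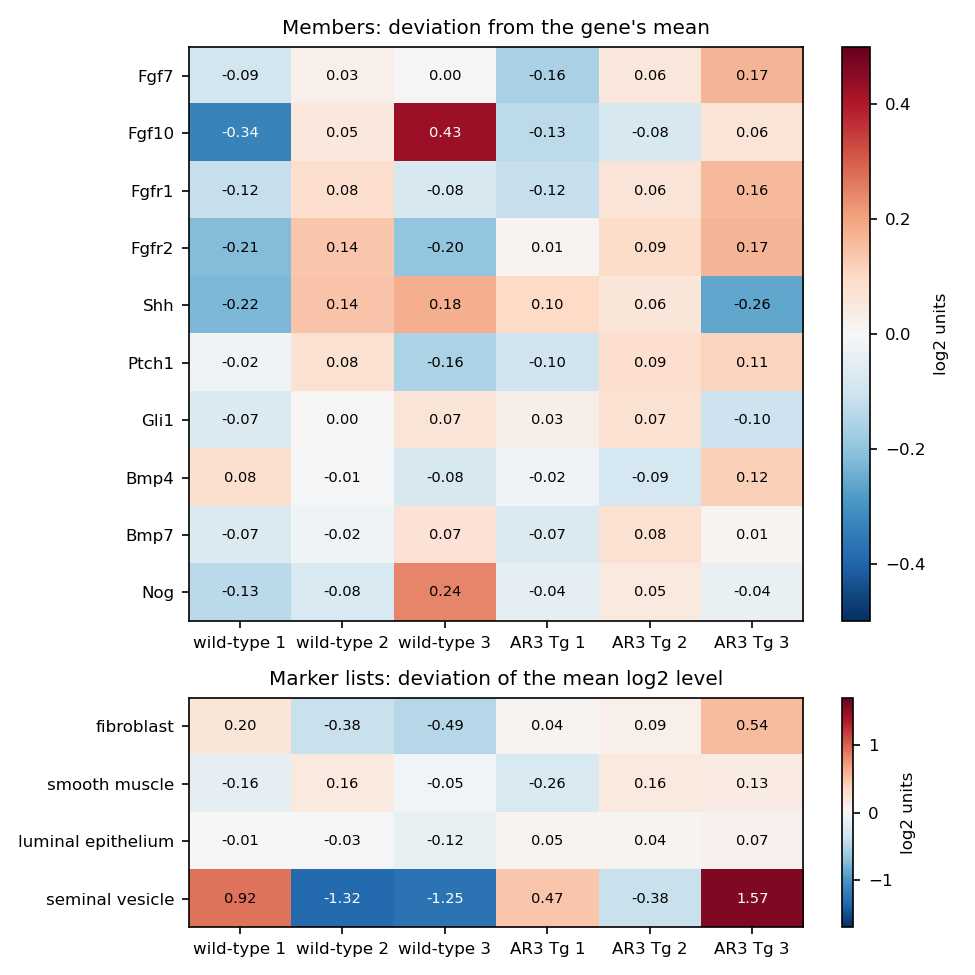
Upper panel: deviation of each gene in each mouse from that gene's mean over the 6 mice, in log2 units of log2(intensity + 16), with red above and blue below the mean. Lower panel: the same for the mean log2 level of 4 marker lists, on a wider colour scale. Fgf10 spans the widest range, lowest in wild-type mouse 1 and highest in wild-type mouse 3, and Shh is low in wild-type mouse 1 and AR3 transgenic (AR3 Tg) mouse 3, where the seminal vesicle list is high.

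The other genes of the 3 pathways and of bud growth were grouped in 11 lists with 161 measured genes, counting each once. Of these, 3 were higher, none was lower and 158 did not pass (limma). That is 1.86% called, against 1.64% of all genes, and 10.6% had an unadjusted p under 0.05 against 12.2% of all genes. The genotypes did not overlap in 27 of the 161, or 16.8%, against 19.1% of all genes. The uncalled genes named below were picked for the smallest p of their list, a choice that favours genes without overlap. The median change was 0.05.

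FGF signalling held no called gene outside the followed members. None of 20 other FGF ligands passed, with a median change of 0.02 and 0 at an unadjusted p under 0.05, and the smallest p among them belonged to Fgf5 (0.38 ± 0.17, adjusted p 0.435) and Fgf6 (0.14 ± 0.08, adjusted p 0.547). The change of Fgf5 was 0.19 without wild-type mouse 1, its lowest value, and 0.57 without wild-type mouse 3. Fgf6 lay under the background scale on all 6 arrays. None of 16 other receptors and cofactors passed, and 2 had an unadjusted p under 0.05. Sulf2, an enzyme that trims heparan sulphate and so tunes FGF binding, read 79.3, 59.7 and 51.3 in wild-type and 99.5, 97.7 and 121.4 in transgenic mice. Those groups did not overlap, with a change of 0.63 ± 0.14 and an adjusted p of 0.101 in limma, and Sulf2 was called without wild-type mouse 1 (adjusted p 0.024) and with array weights (0.012). It was not called in the other 16 alternatives, with an adjusted p of 0.369 without transgenic mouse 3, and with the fibroblast level as a covariate its change was 0.35 (adjusted p 0.207). Wild-type mice 2 and 3 lay under the background scale, so the size of this change too depends on the added constant. Hs2st1, a heparan sulphate sulfotransferase, had a change of 0.24 ± 0.09 and an adjusted p of 0.353.

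None of 16 FGF response and feedback genes passed, with a median change of 0.10 and 2 at an unadjusted p under 0.05. Etv1, an ETS factor induced by FGF signalling, read 167.1, 214.1 and 216.4 in wild-type and 273.8, 281.0 and 284.5 in transgenic mice. The groups did not overlap, and the change was 0.47 ± 0.11 with an adjusted p of 0.107 in limma. It was called in 3 of 18 alternatives: median centring (adjusted p 0.049), an intensity trend with robust variances (0.037) and array weights (0.031). Spred2, an inhibitor of the same route, had a change of 0.34 ± 0.11 and an adjusted p of 0.273.

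The hedgehog lists held all 3 called genes. The lists were chosen with earlier results of these data known, and over all 11 lists the share called was 1.86%, against 1.64% of all genes. Of 14 other ligands, release factors and surface proteins, 2 were higher, 0 lower and 12 not called. Scube2, a secreted protein that helps lipid-bearing Shh leave the cell that makes it, read 126.5, 138.5 and 145.1 in wild-type mice and 280.7, 282.2 and 270.2 in transgenic mice. Every transgenic value was above every wild-type value. The means were 137 ± 9.42 (SD, n = 3) and 278 ± 6.56 (SD, n = 3), a log2 change of 0.95 ± 0.08 with an interval of 0.76 to 1.13 and an adjusted p of 0.00079 (limma). Scube2 was called in all 18 alternatives, with changes of 0.77 to 1.10.

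Lrp2, also called megalin, is an endocytic receptor that takes up many ligands, Shh among them. It read 43.6, 50.9 and 55.2 in wild-type mice and 128.7, 117.6 and 119.2 in transgenic mice, with no overlap. The means were 49.9 ± 5.83 (SD, n = 3) and 122 ± 6.01 (SD, n = 3), a log2 change of 1.07 ± 0.09 with an interval of 0.86 to 1.28 and an adjusted p of 0.00087 (limma). Its wild-type values lay under the background scale and its transgenic values above it, so the size of its change depends on the added constant. The change was 1.28 with a constant of 1 and 0.71 with 64, called in both.

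None of 16 hedgehog transduction genes passed, with a median change of 0.04, and 2 had an unadjusted p under 0.05. Kif7, a kinesin that acts on Gli proteins in the cilium, had a change of 0.30 ± 0.12 and an adjusted p of 0.375, and Smo, the signal transducer that Ptch1 holds back, had 0.24 ± 0.10 and 0.408. Of 11 other hedgehog response genes 1 was higher, 0 lower and 10 not called, with a median change of 0.12. Ccnd2, the cyclin D2 gene, which many growth signals also induce, read 747.5, 980.7 and 901.1 in wild-type and 1319, 1575 and 1389 in transgenic mice. The groups did not overlap, and the change was 0.70 ± 0.12 with an adjusted p of 0.035 (limma). Its call was lost in 9 of 18 alternatives. Among these were the fits without any 1 mouse other than wild-type mouse 1, at an adjusted p of 0.058 to 0.165. The others were an added constant of 1 (0.072), the fibroblast covariate (0.061), olfactory background subtraction (0.111) and the fit without both wild-type mouse 1 and transgenic mouse 3 (0.167). Igfbp6, an IGF-binding protein gene, had a change of 0.56 ± 0.22 and an adjusted p of 0.375, and its change was 0.10 with the fibroblast level as a covariate.

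**Figure D4:**
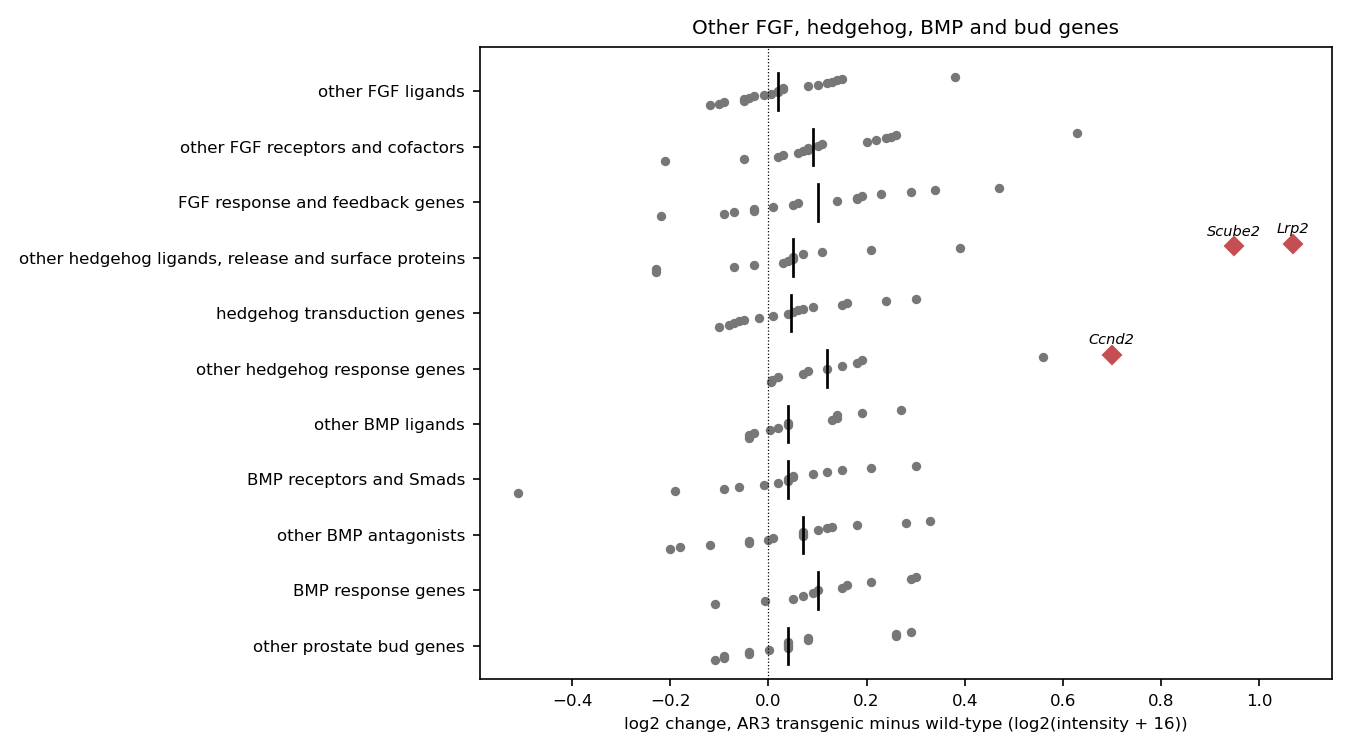
Log2 change, AR3 transgenic minus wild-type on the scale of log2(intensity + 16), of every measured gene of the 11 pathway lists, 1 list per row, with the list's median as a vertical bar. Red diamonds are the 3 genes past an adjusted p of 0.05 in limma (Scube2, Lrp2 and Ccnd2), grey circles the others, and the lowest point is Bmpr1b at -0.51.

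BMP signalling held no called gene. None of 12 other BMP ligands passed, with a median change of 0.04, and the smallest p among them belonged to Bmp2 (0.14 ± 0.08, adjusted p 0.541) and Gdf6 (0.27 ± 0.16, adjusted p 0.563). Bmp2 lay under the background scale on all 6 arrays and Gdf6 on 4 of 6. The change of Gdf6 was 0.09 without wild-type mouse 1 and 0.43 without wild-type mouse 3, and that of Bmp2 was 0.09 without transgenic mouse 3. None of 15 receptors and Smads passed, with a median of 0.04 and 3 at an unadjusted p under 0.05. Bmpr1b, a type I BMP receptor, read 811.2, 868.4 and 993.1 in wild-type mice and 628.5, 651.5 and 576.5 in transgenic mice. Every transgenic value was below every wild-type value, with a change of -0.51 ± 0.10 and an adjusted p of 0.060 in limma. It was called lower in 7 of 18 alternatives, among them median centring (adjusted p 0.0093) and the fit without wild-type mouse 1 (0.040), and its adjusted p reached 0.271 without transgenic mouse 3. Smad4, the Smad shared by the BMP and TGF-β routes, had a change of 0.21 ± 0.08 and an adjusted p of 0.341.

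None of 16 other BMP antagonists passed and 0 had an unadjusted p under 0.05, with a median of 0.07. The pseudoreceptor Bambi had a change of 0.18 ± 0.09 (adjusted p 0.462) and Bmper, which lay under the background scale on all 6 arrays, one of -0.20 ± 0.10 (adjusted p 0.465). None of 11 BMP response genes passed, with a median of 0.10. Id1, a direct target of BMP-activated Smads, read 246.1, 217.9 and 229.5 in wild-type and 310.1, 273.3 and 277.1 in transgenic mice, without overlap, with a change of 0.29 ± 0.09 and an adjusted p of 0.217 in limma. It was called with array weights (adjusted p 0.046). The inhibitory Smad gene Smad7 had a change of 0.21 ± 0.10 and an adjusted p of 0.426.

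None of 15 other prostate bud genes passed, with a median of 0.04. The Notch ligand gene Jag1 (0.26 ± 0.08, adjusted p 0.237) and the receptor gene Notch1 (0.26 ± 0.08, adjusted p 0.247) had the smallest p, and in both the transgenic values lay above the wild-type values.

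For each of the 10 genes, the gene with the most similar profile over the 6 arrays was found among 11205 genes with a mean intensity of at least 100. Pearson's r is given as a description. With 6 arrays and that many genes high values arise in every case: all 10 best matches lay between 0.986 and 0.998. Fgf7 was most like Snai2 (0.995), a mesenchymal transcription factor, and Fgf10 most like Nucb2 (0.993). Fgfr1 was most like the actin-binding protein gene Flna (0.992) and Fgfr2 most like the methyltransferase gene Setd7 (0.992). Shh was most like 1700022A21Rik (0.986), Ptch1 most like the membrane glycoprotein gene Gpm6b (0.998) and Gli1 most like Smg5 (0.993). Bmp4 was most like Mtpap (0.992), Bmp7 most like Bicd2 (0.991) and Nog most like Rtl8c (0.994). None of these 10 best matches was itself called, with adjusted p of 0.712 to 0.996 (limma).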

How the data were processed

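Total RNA of dissected prostates was labelled for Affymetrix whole-transcript arrays, per the labels' protocols. The authors deposited 1 intensity per probe set and array, which the range of the values shows to be linear. How probe sets were summarised and normalized, and with which software, is not given in the sources used here. No further normalization was applied. Of 35512 probe sets, 6568 whose low identifiers mark controls on this platform were left out. Genes were named from the platform annotation, and a gene with several probe sets was read from the brightest on average. The deposited intensities were tested as log2(intensity + 16) with limma 3.58.1 (lmFit, then eBayes) under R 4.3.3, two-sided, with the 3 transgenic arrays set against the 3 from wild-type mice. Benjamini-Hochberg adjustment covered 28944 probe sets, of which 425 passed 0.05. The fit was tested on simulated data. The genes and lists were chosen with earlier results of these data known. From each pathway list every called gene and the 2 with the smallest p are named. An exact permutation test of 3 against 3 was not used for single genes.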

Additional observations from a re-analysis of the deposited data

How the results depend on the processing

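Under 18 alternatives, 17 planned and 1 (olfactory background subtraction) chosen after seeing the data, 0 of the 10 genes were called in any, and the smallest adjusted p was 0.32. The planned fit without both wild-type replicate 1 and transgenic replicate 3 leaves out the arrays highest in seminal vesicle markers, so it was not chosen blind to these data. No gene had a second probe set to set beside the first. Of 180 values, 151 kept their sign and 29, of size up to 0.22, did not. With the fibroblast level as a covariate these were Fgf10 (0.12), Shh (0.22), Ptch1 (-0.00085), Bmp4 (-0.11) and Nog (0.10). With quantile normalization they were Gli1 (-0.03), Bmp4 (-0.0065) and Bmp7 (-0.01), and with median centring Gli1 (-0.04), Bmp4 (-0.03) and Bmp7 (-0.03). With array weights they were Gli1 (-0.0096) and Nog (0.03). Without both wild-type replicate 1 and transgenic replicate 3 they were Fgf7 (-0.07), Fgfr1 (-0.03), Bmp4 (-0.0073) and Bmp7 (-0.02). Leaving out single arrays gave ranges of -0.03 to 0.13 for Fgf7, -0.29 to 0.09 for Fgf10, 0.01 to 0.15 for Fgfr1, 0.12 to 0.30 for Fgfr2, -0.19 to 0.05 for Shh, 0.0035 to 0.13 for Ptch1, -0.03 to 0.05 for Gli1, -0.05 to 0.05 for Bmp4, -0.02 to 0.05 for Bmp7 and -0.09 to 0.09 for Nog. The cause of these sign changes was not tested.

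The pathway genes called numbered 3 with the settings used and 5 with median centring, 5 with robust variances and an intensity trend, and 7 with array weights. The count was 4 with a constant of 64, with quantile normalization and without the dimmest 40% of probe sets. It fell to 2 with a constant of 1, the fibroblast covariate, olfactory background subtraction, or both wild-type replicate 1 and transgenic replicate 3 left out. Leaving out single arrays gave 2 to 5, with 5 without wild-type replicate 1. Scube2 and Lrp2 were called under each of the 18. Of other uncalled pathway genes, Fgf6 and Kif7 changed by 0.08 and 0.19 without wild-type replicate 1, Igfbp6 by 0.34 without transgenic replicate 3, and Hs2st1, Smad4 and Smad7 by 0.13, 0.12 and 0.09 with the fibroblast covariate. The probe sets called numbered 678 with robust variances and an intensity trend, 1202 with array weights, 237 without both named arrays, 233 with the fibroblast covariate, 335 with the smooth muscle covariate and 234 to 519 without single arrays. With median centring 314 probe sets were higher and 264 lower, against 305 and 120 as deposited. With a replicate block on the mouse number, 250 probe sets, 0 of the 10 genes and the same count of 3 pathway genes were called. Same-numbered mice deviated from their group means with correlations of -0.04, 0.05 and -0.16. Differently numbered mice gave -0.14 to 0.18, so with 3 mice per genotype these values cannot show whether the numbers pair them. With 3 arrays a genotype and Fgf7, Gli1 and Nog near the background scale, small changes of these genes are not resolved.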
